A study of Oryza sativa with 12 samples.

Results

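Cell cycle regulators of developing rice (Oryza sativa) seed were followed through 4 genes: CYCB2-1, a B-type cyclin; NEK2, a kinase of the NIMA-related family; CDKG-1, a cyclin-dependent kinase of the G class; and RBR1, a retinoblastoma-related protein. They were picked by their symbol from a deposited table of 37878 genes, 412 of which carry a symbol. Embryo-high results of these data were already known when they were proposed. All 4 passed the filter on low counts that left 16347 genes for testing. The libraries were made from total RNA of 4 parts of the seed, the pericarp, the aleurone, the embryo and the endosperm. The pericarp is the fruit wall and belongs to the mother plant. The aleurone is the living outer cell layer of the endosperm, around the starch store. There were 3 libraries for each tissue, described by the submitters as biological replicates. The plants stood in the field and were not treated. The sources used here do not name the cultivar, genotype or age of the seeds, nor say whether the tissues were cut from the same seeds.

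Cells divide by alternating DNA synthesis with mitosis. Cyclins bind and activate cyclin-dependent kinases, and B-type cyclins act at entry into mitosis. NEK kinases act on microtubules, and in animals the relative with the same name acts at the centrosome. Retinoblastoma proteins hold E2F transcription factors in check until a cyclin-dependent kinase phosphorylates them, which releases genes of DNA synthesis. Kinases of the G class are linked in Arabidopsis to RNA splicing as well as to cell division. In cereal seeds the embryo builds shoot and root meristems, while cells of the starchy endosperm stop dividing, replicate DNA without mitosis and later die, and the aleurone stays alive.

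Library totals ran from 2879282 counts in a pericarp library to 24412371 in an endosperm library. Libraries are named here by the number in their column header. Levels are TMM-scaled CPM (counts of a gene relative to the scaled total of its library), given as mean ± SD over 3 libraries. Of genes with at least 50 counts in both other libraries of a tissue, the share at 0 was 27.9% to 36.4% in the pericarp libraries, 33.9% in aleurone 2, 32.7% in endosperm 3, 10.5% in embryo 3 and 2.37% to 9.61% in the remaining 6. The libraries of a tissue are bulk samples, so fewer cells of a type and less RNA per cell cannot be told apart. The summed level of 5 embryo markers in the table was 65.8 to 86.9 CPM in embryo libraries, 0 to 54.8 in pericarp, 0 to 30.4 in aleurone and 0 in endosperm, with WOX3 at 0 in all 12. The starch gene WAXY, the lone endosperm marker matched, had 23088 to 81668 CPM in endosperm, 1092 to 2639 in aleurone, 343 to 2320 in pericarp and 0.724 to 19.9 in embryo. The 6 aleurone markers summed to 4483 to 7197 CPM in aleurone, 2114 to 4497 in embryo, 2441 to 3669 in pericarp and 192 to 639 in endosperm. The 5 pericarp markers, with ANS1 at 0 in every library, summed to 753 to 1822 CPM in pericarp, 312 to 621 in aleurone, 87.1 to 177 in embryo and 22.8 to 470 in endosperm.

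CYCB2-1 transcripts were counted in the embryo and in no other tissue. The gene lies on the minus strand of chromosome 4, from 27014231 to 27016653 in the coordinates of the table, with no build named in the sources used here. It had 85.1 CPM in embryo 2, 89.2 in embryo 3 and 128 in embryo 4, from 1844, 1607 and 2651 counts. All 9 pericarp, aleurone and endosperm libraries were at 0, so embryo and the rest did not overlap. At the embryo mean of 101 ± 23.6 CPM (SD, n = 3), these 9 libraries would have held 521 to 1360 counts of the gene. A floor of 3 counts over the libraries of a tissue puts the embryo level at least 738-fold above pericarp, 826-fold above endosperm and 972-fold above aleurone. Floors cover counting error alone, because PCR copies, with no molecular identifiers to tell them apart, are not separate molecules, and they do not cover transcripts lost before sequencing. Being counted in the 3 embryo libraries and at 0 in the other 9 was a pattern of 4.67% of all genes tested. A count of 0 in pericarp with counts in the 3 embryo libraries, which CYCB2-1 shares with CDKG-1, was seen in 29.9%.

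NEK2 was also highest in the embryo, with 1 further library in the pericarp. The gene lies on the minus strand of chromosome 12, from 21073422 to 21076878. Embryo 2 had 88.6 CPM, embryo 3 had 45.6 and embryo 4 had 86.8, a mean of 73.7 ± 24.3 (SD, n = 3). Pericarp 3 held 172 counts, or 22.5 CPM, and pericarp 1 and 4 and all 6 aleurone and endosperm libraries were at 0. Each embryo library was thus above each of the other 9, as it was for 13.2% of all genes tested and for CYCB2-1. By the counting floor the embryo level was at least 711-fold above aleurone and 604-fold above endosperm. Counts in the 3 embryo libraries with none in aleurone or endosperm were found for CYCB2-1, NEK2 and 5.95% of all genes tested. Embryo 3, the lowest embryo library for NEK2, had the largest share of missing genes among the 3 embryo libraries. The part of that share in the spread was not tested.

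**Figure D1:**
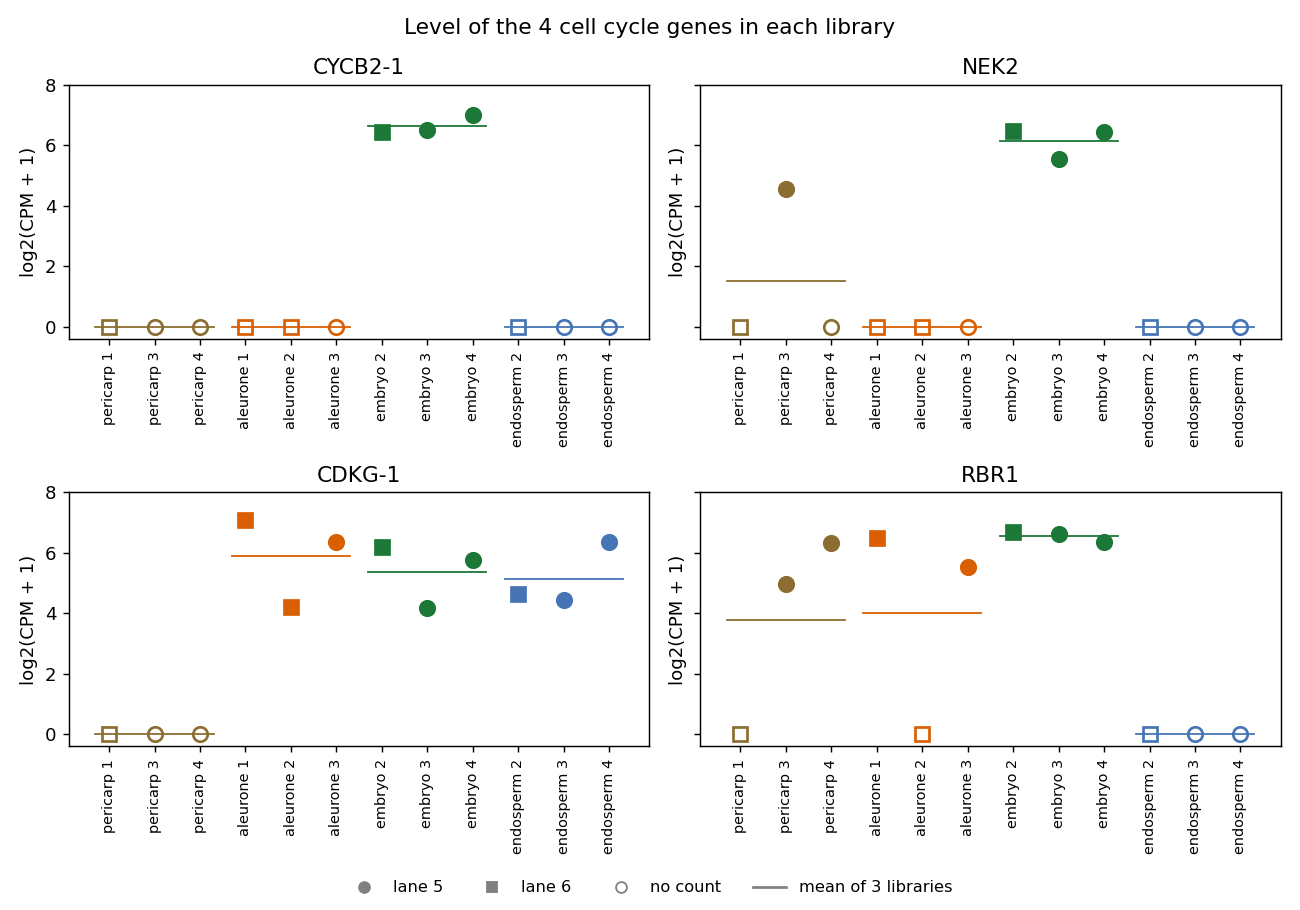
Level of each gene in the 12 libraries as log2(CPM + 1), where each point is a library, its shape gives the sequencing lane, open points had no count and lines are means of 3 libraries. CYCB2-1 has counts in the 3 embryo libraries alone, NEK2 in these and pericarp 3, CDKG-1 in all but the 3 pericarp libraries, and RBR1 in 7 libraries, none of them endosperm.

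Set against the mean of the other 3 tissues, 3 of the 4 genes were called higher in embryo by edgeR's quasi-likelihood test (at least a 2-fold difference and a Benjamini-Hochberg adjusted p, over all genes tested, below 0.05). So were 16.6% of all genes tested, and a further 1.12% were called lower, 17.8% in all. The 4 genes were proposed with embryo-high results of these data known, so their calls here are no independent support for a higher level in embryo. CYCB2-1 had an adjusted p of 0.0141 and NEK2 an adjusted p of 0.0238 in this edgeR contrast. CDKG-1 passed as well (adjusted p = 0.0338, edgeR), although its level in embryo, 48.0 CPM, was close to the 40.0 CPM that the other 3 tissues averaged and below that of aleurone. The contrast averages log levels, so that a tissue at 0 weighs on it heavily. RBR1 did not pass (adjusted p = 0.0617, edgeR). The median gene tested was itself 2.30 higher in embryo on the log2 scale.

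These calls depend on single libraries. That of CYCB2-1 ended without aleurone 3 (edgeR adjusted p = 0.0532), with a fitted log2 fold change of 13.27 against 13.16 with 12 libraries. In that fit 78 genes were called over the whole table, against 2903 with 12 libraries. The CYCB2-1 call held without any of the other 11. That of NEK2 ended without aleurone 3, any embryo library or any endosperm library (edgeR adjusted p from 0.0508 to 0.0708), and with a block for the header number (0.0689). That of CDKG-1 ended without aleurone 3, embryo 2 or 4, or any endosperm library (edgeR adjusted p from 0.0528 to 0.107), without the filter on low counts (0.0503), with lane as a covariate (0.0568) and with the block (0.245). RBR1 passed without pericarp 1 (edgeR adjusted p = 0.0474).

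In the pairs of tissues that hold the embryo, neither CYCB2-1 nor NEK2 passed. Their levels stood far apart there, save for NEK2 in pericarp 3, at 22.5 CPM against 45.6 in embryo 3. For CYCB2-1 the edgeR adjusted p was 0.0666 against pericarp, 0.121 against endosperm and 0.172 against aleurone. For NEK2 it was 0.47 against pericarp, where the log2 fold change was 3.29 ± 2.76 (SE), 0.121 against endosperm and 0.172 against aleurone. The value against pericarp rests on pericarp 3. Without that library pericarp was at 0, the fitted log2 fold change, which depends on the prior count and is no bound, was 12.89, and the edgeR adjusted p was 0.0848. The call rate over all genes was low in these pairs, at 2.79% for embryo against pericarp, 0.685% for embryo against endosperm and 0.447% for aleurone against embryo. The common dispersion of 3.49 corresponds to a biological coefficient of variation of 1.87. It is a single value over all genes tested, and not the spread of CYCB2-1 or NEK2 itself. CYCB2-1 passed against pericarp without endosperm 3 (edgeR adjusted p = 0.0486). With the 6 libraries of the 2 tissues alone, edgeR called it in all 3 pairs (adjusted p from 0.00686 to 0.0178) and NEK2 against endosperm and aleurone (0.0132 and 0.0237). These fits called far more genes in general, 42.1% of those tested in embryo against pericarp, 29.5% in embryo against endosperm and 2.56% in aleurone against embryo.

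CDKG-1 had another pattern, with transcripts in every aleurone, embryo and endosperm library and none in the pericarp. The gene lies on the plus strand of chromosome 2, from 25262506 to 25265124. In aleurone it had 135 CPM in library 1, 17.6 in library 2 and 81.4 in library 3. In embryo it had 73.1 CPM in library 2, 17.0 in library 3 and 53.8 in library 4. In endosperm it had 23.9 CPM in library 2, 20.7 in library 3 and 81.9 in library 4. Each of these tissues had a library near 20 CPM and a library above 70, and the 3 tissues overlapped throughout. The means were 77.9 ± 58.6 CPM in aleurone, 48.0 ± 28.5 in embryo and 42.2 ± 34.5 in endosperm (SD, n = 3). The low libraries aleurone 2, embryo 3 and endosperm 3 were also those with the largest share of missing genes in their tissue, and the part of that share in the level was not tested.

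At 0 in pericarp, CDKG-1 was at least 570-fold lower there than in aleurone, 351-fold lower than in embryo and 309-fold lower than in endosperm by the counting floor. It was the only gene of the 4 called in any pair, lower in pericarp in all 3 pairs that hold this tissue. The adjusted p was 0.0219 for embryo against pericarp, 0.0248 for aleurone against pericarp and 0.0237 for pericarp against endosperm (edgeR, adjusted over all genes tested). Of all genes tested, 2.18% were called lower in pericarp than in embryo, 1.62% lower than in aleurone and 2.23% lower than in endosperm. The share of all genes called in either direction was 1.63% for aleurone against pericarp and 2.46% for pericarp against endosperm. At the mean level of the embryo, the pericarp libraries would have held 288 to 398 counts of the gene. This number and the floor cover counting error alone. Each pericarp library was itself at 0 for 27.9% to 36.4% of genes with at least 50 counts in both other pericarp libraries. Pericarp libraries had counts for 4599 to 5893 genes, and embryo libraries for 14326 to 16862. The part of missing genes in the pericarp zeros of CDKG-1 was not tested. Being at 0 in the 3 pericarp libraries and counted in the other 9 was a pattern of 1.95% of all genes tested. Among aleurone, embryo and endosperm no pair differed beyond the error, with log2 fold changes of 0.70 ± 1.37 for aleurone against embryo, 0.88 ± 1.38 for aleurone against endosperm and 0.19 ± 1.37 for embryo against endosperm (SE, edgeR adjusted p from 0.99 to 1). The last of these turned to -0.03 with DESeq2 size factors, a scaling that moved the median of all genes by -0.25 in this pair. It also turned to -0.15 without embryo 2, -0.03 without endosperm 2 and -0.08 without endosperm 3.

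The 3 pericarp calls of CDKG-1 also hang on single libraries, as do the calls over the whole table in these pairs. Against embryo the call ended without aleurone 3 or any embryo library (edgeR adjusted p from 0.0515 to 0.0849), against aleurone without any embryo library or without aleurone 1, aleurone 3, endosperm 2 or endosperm 4 (0.0573 to 0.0871), and against endosperm without aleurone 1 or 3, embryo 2 or 4, or endosperm 2 or 4 (0.051 to 0.0682). Fits without these libraries called 0 of all genes tested against aleurone, where 266 were called with 12 libraries. They called 108 to 175 genes against embryo (456 with 12 libraries) and 113 to 254 against endosperm (402). With lane as a covariate the edgeR adjusted p of CDKG-1 rose to 0.0539, 0.0753 and 0.0576 against embryo, aleurone and endosperm. Over the whole table that setting called 186, 0 and 182 genes in the same order. With the 6 libraries of the 2 tissues the adjusted p of CDKG-1 was 0.0824 against aleurone and 0.0894 against endosperm. These 6-library fits called 0 genes in either pair. Against embryo CDKG-1 passed in the 6-library fit (0.0084), which called 42.1% of the genes it tested. DESeq2 kept all 3 pericarp calls, with an adjusted p from 1.03e-08 to 1.07e-07. Of the 16347 genes tested DESeq2 called 5259 against embryo, 4425 against aleurone and 4938 against endosperm in these pairs, far more than edgeR.

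**Figure D2:**
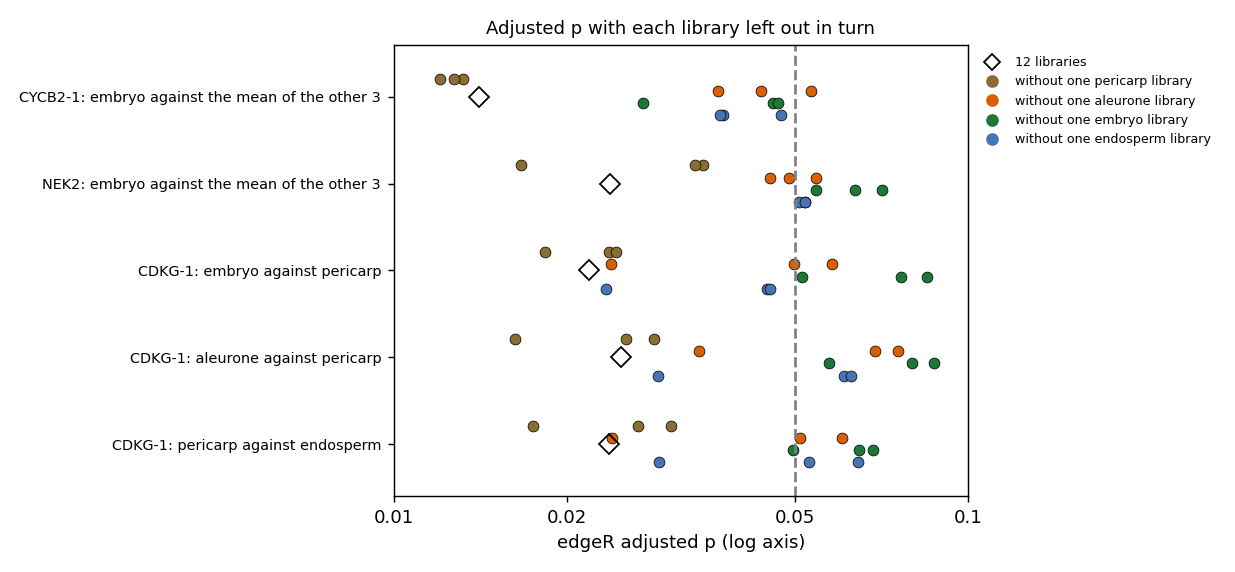
Adjusted p of edgeR's quasi-likelihood test (log axis) for the pericarp calls of CDKG-1 and the embryo contrasts of CYCB2-1 and NEK2, with 12 libraries (diamonds) and with each library left out in turn (dots, coloured by the tissue of that library); the dashed line is 0.05. The adjusted p of the CYCB2-1 contrast rises above 0.05 without 1 library, and those of the NEK2 and CDKG-1 results do so without 4 to 7.

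RBR1 was steadiest in the embryo and not counted in the endosperm. The gene lies on the minus strand of chromosome 8, from 28651901 to 28657473. Its 3 embryo libraries had 102, 98.2 and 81.1 CPM, a mean of 93.9 ± 11.2 (SD, n = 3). In aleurone it had 88.8 CPM in library 1, 0 in library 2 and 45.1 in library 3. In pericarp it had 0 in library 1, 30.7 CPM in library 3 and 79.7 in library 4. The highest aleurone library thus lay within the embryo range and the highest pericarp library just under it, while aleurone and pericarp overlapped. Aleurone 2 also lacked the most genes of its tissue, being at 0 for 33.9% of those that reached 50 counts in each of the other aleurone libraries, against 5.01% and 9.61% in aleurone 1 and 3. The pericarp did not follow this order. Pericarp 1, at 0 for RBR1, had the lowest such share of its tissue at 27.9%, and pericarp 4, the highest for RBR1, had the largest at 36.4%. The part of missing genes in the RBR1 values was not tested.

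All 3 endosperm libraries were at 0 for RBR1, where the embryo mean would have given 485 to 1044 counts. By the counting floor RBR1 was at least 769-fold lower in endosperm than in embryo, 366-fold lower than in aleurone and 302-fold lower than in pericarp. Counts in the 3 embryo libraries with none in endosperm were shared by CYCB2-1, NEK2 and RBR1, and by 17.7% of all genes tested. In the same 3 genes each embryo library lay above each endosperm library, which held for 36.8% of all genes tested. RBR1 passed in no pair of tissues. The edgeR adjusted p was 0.121 for embryo against endosperm, 0.106 for pericarp against endosperm and 0.255 for aleurone against endosperm. The last pair called 0.0428% of all genes tested. Between embryo, aleurone and pericarp the log2 fold changes were within their errors, at 1.35 ± 2.26 for embryo against pericarp, -1.07 ± 2.25 for aleurone against embryo and 0.28 ± 2.23 for aleurone against pericarp (SE, edgeR adjusted p from 0.794 to 1). The last turned to -0.13 with DESeq2 size factors, which moved the median of all genes by -0.35 in that pair, to -0.27 without pericarp 1 and to -0.62 without aleurone 1. Without pericarp 1, pericarp against endosperm passed (edgeR adjusted p = 0.0389).

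None of the 4 genes passed the edgeR F test for a difference between any tissues, which 1.78% of all genes did. The adjusted p was 0.0529 for CYCB2-1, 0.0583 for CDKG-1, 0.0995 for NEK2 and 0.145 for RBR1, and all 4 had an unadjusted p below 0.05, as had 32.3% of all genes tested. DESeq2's likelihood ratio test called 3 of the 4 and 13.6% of all genes, and gave no adjusted p for NEK2. CYCB2-1 passed the F test without pericarp 1, 3 or 4 (edgeR adjusted p from 0.025 to 0.032), and NEK2 without pericarp 3 (0.0396). Over the 3 pairs in which edgeR called 0 of the 4, the number with an unadjusted p below 0.05 was 3 in embryo against endosperm, 2 in aleurone against embryo and 1 in aleurone against endosperm. Over all genes tested that share was 26.7%, 14.4% and 19.6%. DESeq2 called 2, 1 and 1 of the 4 there, and 18.8%, 8.3% and 14.4% of all genes.

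No other gene of the table overlaps any of the 4. The nearest gene lay 766 bases from CYCB2-1, 199 from NEK2, 1186 from CDKG-1 and 1300 from RBR1. The neighbour of CYCB2-1 was at 0 in every tissue, and that of NEK2 was counted in endosperm alone, at a mean of 6.71 CPM. The neighbour of CDKG-1 had 60.9 CPM in aleurone, 5.73 in embryo and 0 in pericarp and endosperm. It thus shared the pericarp zeros with CDKG-1 but not the endosperm counts. Pericarp zeros were common, as 29.9% of all genes tested had them together with counts in the 3 embryo libraries. The neighbour of RBR1 had 115 CPM in aleurone, 22.6 in pericarp, 17.5 in embryo and 0 in endosperm, and was thus counted in the same 3 tissues as RBR1. Counts in the 3 embryo libraries with none in endosperm were found for 17.7% of all genes tested. Any part of reads from outside the gene models in these values was not tested. All 4 symbols were found in the RefSeq gene table of another rice assembly (ASM3414082v1), each on the chromosome that the deposited table gives. The sources used here do not say how reads matching several genes were counted, which leaves the split between CDKG-1 and its close relative CDKG-2 uncertain.

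Of 31 planned symbols of cyclin-dependent kinases and their regulators, 6 were in the table and tested. Besides CDKG-1 these were CDKG-2, of the same class; CDKD-1 and CDKF-1, of the classes that activate other kinases of the family; CKS1, a small subunit of the kinase complex; and KRP1, an inhibitor of the complex. None of these 5 was called in any comparison, and over 30 tests in pairs of tissues none had a log2 fold change beyond 1.19 standard errors from 0. The list of 6 had a median log2 fold change of 0.66 in embryo against pericarp, where that of all genes tested was 2.41. CDKG-2 had 148 ± 51.9 CPM in endosperm, 81.0 ± 8.43 in embryo, 78.6 ± 19.8 in aleurone and 44.3 ± 38.7 in pericarp (SD, n = 3). Unlike CDKG-1 it was counted in pericarp 1 and 3, at 61.8 and 71.3 CPM, and it was at 0 in pericarp 4.

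CKS1 had 51.1 ± 12 CPM in embryo, 20.0 ± 8.15 in endosperm, 18.8 ± 6.44 in aleurone and 8.41 ± 14.6 in pericarp (SD, n = 3). Its 3 embryo libraries, at 37.5 to 59.8 CPM, lay above the other 9, which reached 25.8, a pattern of 13.2% of all genes tested. The edgeR log2 fold change of embryo against pericarp was 2.60 ± 2.18 (SE, adjusted p = 0.456). KRP1 was lowest in embryo at 6.52 ± 8.18 CPM, against 24.9 ± 27.3 in endosperm, 20.1 ± 3.96 in aleurone and 13.8 ± 19.0 in pericarp. Its embryo libraries, at 0 to 15.7 CPM, lay below the 3 aleurone libraries, at 16.0 to 24.0, and overlapped those of pericarp and endosperm. The share of all genes with embryo libraries below those of aleurone was not counted. The edgeR log2 fold change of KRP1 in aleurone against embryo was 1.62 ± 2.36 (SE) and was not called. CDKF-1 had 48.1 ± 29.2 CPM in endosperm, 43.1 ± 20.9 in aleurone, 30.5 ± 6.99 in embryo and 25.0 ± 43.2 in pericarp. CDKD-1 had means of 10.3 to 21.6 CPM in the 4 tissues, each with overlapping libraries.

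The other planned groups were thinly covered by symbols. CYCB2-1 was the only 1 of 48 planned cyclins in the table, RBR1 the only 1 of 19 genes of the retinoblastoma and E2F group, and NEK2 the only 1 of 18 mitotic kinases and checkpoint genes. None of 29 planned genes of the anaphase-promoting complex and chromatid separation was matched. An unmatched gene can be in the table without a symbol, so these counts say nothing of the groups as such. Of 58 planned DNA replication genes 8 were in the table and tested. MCM3, MCM6, MCM7 and MCM9, parts or relatives of the replicative helicase, were called higher in embryo than the average of the rest, 4 of 8 where 16.6% of all genes tested were. MCM3 reached 222 ± 38.7 CPM in embryo against 39.0 ± 67.6 in pericarp and 4.89 ± 5.14 in endosperm (SD, n = 3), with a single count in aleurone. MCM6 had 53.5 ± 40.6 CPM in embryo and at most 12.4 in any other library. MCM7, with 50.6 ± 26.5 CPM in embryo, was counted outside it in 1 pericarp library, and MCM9 in no other library. FEN1a and FEN1b, flap endonucleases that process lagging strand fragments, had 121 ± 60.9 and 65.2 ± 34.4 CPM in embryo and were not called. The embryo libraries of FEN1a, at 54.6 to 174 CPM, lay above those of endosperm, which reached 17.5, as for 36.8% of all genes tested. They overlapped those of aleurone and pericarp. The embryo libraries of FEN1b overlapped those of each other tissue. The median fitted log2 fold change of the 8 genes in this contrast was 6.53, against 2.30 over all genes tested, and fitted values depend on how tissues at 0 are handled. With each tissue under its floor of 3 counts set to that floor, the medians were 5.68 and 1.62.

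Of 10 genes of histone H2B, a core histone that is made in quantity during DNA synthesis, H2B.2 and H2B.9 were called higher in embryo than the average of the rest. A count of 2 of 10 is near the 16.6% of all genes tested that were called in this direction. H2B.2 was at 0 in aleurone, at 5.09 ± 4.45 CPM in endosperm, at 72.4 ± 125 in pericarp and at 191 ± 26.5 in embryo (SD, n = 3). H2B.9 had 83.6 ± 43.6 CPM in embryo and 45.9 in 1 aleurone library. H2B.6 had 205 ± 23.6 CPM in embryo and 142 ± 127 in pericarp and was not called. H2B.8 had 78.4 ± 12.3 CPM in embryo and 74.1 ± 10.5 in endosperm. The median of the 10 was 2.70 as fitted and 2.70 at the floor, against 2.30 and 1.62 over all genes tested. How reads of near-identical H2B copies were assigned is unknown, so the single values are uncertain. No gene of either list was called in a pair of tissues or by the F test.

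**Figure D3:**
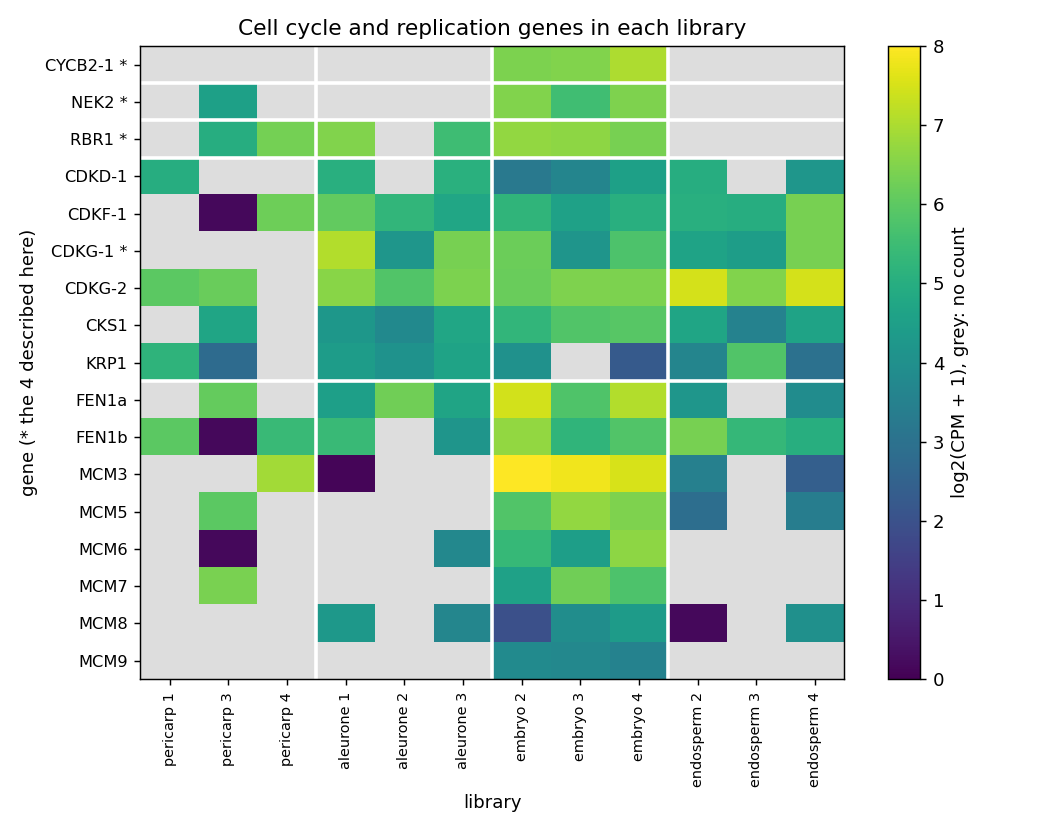
Level of 17 cell cycle and replication genes in the 12 libraries as log2(CPM + 1), with grey for no count and an asterisk at the 4 genes described here. CYCB2-1 and MCM9 are coloured in the embryo columns alone, whereas CDKG-2 is coloured in 11 of the 12 libraries and CDKG-1 in 9.

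Among the 285 other tested genes with a symbol, the profiles most like CYCB2-1 were those of SHR1, WOX4 and MCM9 (Pearson r of log2(CPM + 1) over 12 libraries, 0.998, 0.998 and 0.997). The symbol SHR1 is that of a root patterning factor and WOX4 is a homeobox gene of vascular meristems. All 3 shared with CYCB2-1 the 9 zeros outside the embryo, and had 8.99 ± 1.72, 5.74 ± 0.81 and 12 ± 1.33 CPM in embryo (SD, n = 3). Such profiles were common, as 6.27% of all other genes tested had an r above 0.9 with CYCB2-1.

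NEK2 was closest to the homeobox gene OSH15, the helicase gene MCM7 and the lipid transfer gene LTP110-A_2 (r = 0.964, 0.956 and 0.94). These 3 also had counts in pericarp and none in aleurone or endosperm. OSH15 and MCM7 were counted in 1 pericarp library each, at 54.8 and 83.3 CPM. In both cases this was pericarp 3, the pericarp library that held NEK2. Both stood higher there than in any embryo library, which reached 31.9 and 75.5 CPM. The pericarp counts they share with NEK2 thus rest on that 1 library. CYCB2-1 and NEK2 had an r of 0.89 with each other.

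CDKG-1 was closest to the autophagy gene ATG8C, the ribosomal protein gene RPL11_2 and the phosphate starvation regulator PHR2 (r = 0.928, 0.909 and 0.883). Each of these was at 0 in the 3 pericarp libraries and counted in the other 9. RBR1 was closest to RBOHB, an NADPH oxidase gene, H2B.6 and the jasmonate receptor gene COI1A (r = 0.894, 0.874 and 0.872). These 3 were each counted in all embryo libraries and in 2 of 3 libraries of aleurone and of pericarp. In endosperm COI1A and H2B.6 were counted in 2 libraries each and RBOHB had a single count. CDKG-1 had an r of 0.29 with CYCB2-1, 0.07 with NEK2 and 0.11 with RBR1. The points of these correlations share libraries, depth and the libraries' missing genes.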

How the data were processed

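Per the labels' protocols and the design text, a PicoPure kit gave the RNA, a NEBNext Ultra kit the libraries and a HiSeq2500 the reads. The authors' deposited table held total read counts per gene, whole and not normalized, per the file headers. Its 36 columns of RPKM, TPM and CPM were not used, so levels of different genes were not compared per length. Aligner, build and strand setting: not given in the sources used here. Columns were assigned to tissues by header letters (Al, Em, Pc, and Se for the tissue left), and the header numbers are not those of the sample titles.

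Counts were filtered with filterByExpr (minimum count 10) and fitted with edgeR 4.0.16 in R 4.3.3: TMM, 12 libraries, tissue as the only term, quasi-likelihood tests, Benjamini-Hochberg over 16347 genes. Standard errors were taken as the size of a log2 fold change divided by the root of its F statistic. P-values weigh a difference between tissues against the spread between these libraries, with the estimate of that spread shared across genes. Script behaviour was tested on simulated data. The alternatives were DESeq2 1.42.0, its size factors, no filter, lane, a header-number block, pairs alone and single libraries left out.

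The members and gene lists were chosen with earlier results of these data known. Genes named are the 4, list members called or most abundant, and the 3 symbol-bearing genes most like each.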

Additional observations from a re-analysis of the deposited data

How the results depend on the processing

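Results for the 4 genes changed sides of the threshold under the following settings (adjusted p). DESeq2 called CYCB2-1 higher in embryo than in endosperm (5.57e-05), aleurone (5.78e-05) and pericarp (6.32e-05) and between any tissues (6.09e-05), RBR1 higher in aleurone (7.95e-05), embryo (1.00e-05) and pericarp (3.08e-05) than in endosperm, in embryo against the rest (0.0335) and between any tissues (0.0357), and CDKG-1 between any tissues (0.000427); it gave NEK2 no adjusted p. The cause was not tested. Pairs fitted alone, which use fewer libraries and genes, called CYCB2-1 in embryo against endosperm (0.01004), aleurone (0.0178) and pericarp (0.00686), NEK2 in embryo against endosperm (0.0132) and aleurone (0.0237) and RBR1 in embryo against endosperm (0.00972), and lost CDKG-1 in pericarp against endosperm (0.0894) and aleurone (0.0824). With lane as a covariate CDKG-1 was lost in pericarp against endosperm (0.0576), aleurone (0.0753) and embryo (0.0539) and in embryo against the rest (0.0568). With no filter CYCB2-1 passed between any tissues (0.0243) and CDKG-1 was lost in embryo against the rest (0.0503).

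Deviations from the tissue means correlated at -0.0418 to 0.0312 over 13 pairs of libraries with equal header numbers. They correlated at -0.0323 to 0.0561 over 41 pairs with other numbers. Both ranges lie around 0, and they do not settle whether the header number pairs the libraries. With that number as a replicate block CDKG-1 was lost in pericarp against endosperm (0.0687), aleurone (0.0896) and embryo (0.0606) and in embryo against the rest (0.245), NEK2 in embryo against the rest (0.0689), while RBR1 passed in embryo against endosperm (0.0243) and CYCB2-1 between any tissues (0.0159).

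With single libraries left out, adjusted p ran from 0.0175 to 0.0682, 0.0162 to 0.0871 and 0.0183 to 0.0849 for CDKG-1 in pericarp against endosperm, aleurone and embryo, and from 0.0392 to 0.107 in embryo against the rest. In embryo against the rest it ran from 0.012 to 0.0532 for CYCB2-1, 0.0166 to 0.0708 for NEK2 and 0.0474 to 0.118 for RBR1. For CYCB2-1 it ran from 0.0486 to 0.168 in embryo against pericarp and 0.025 to 0.17 between any tissues, for NEK2 from 0.0396 to 0.218 between any tissues, and for RBR1 from 0.0389 to 0.200 in pericarp against endosperm. Uncalled differences changed sign for CDKG-1 in embryo against endosperm (adjusted p = 1 with DESeq2 and its size factors, 0.792 to 1 without single libraries) and for RBR1 in aleurone against pericarp (1, and 0.856 to 1).

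The genes called over the whole table ranged more widely, without single libraries from 78 to 2873 in embryo against the rest (2903 with all), 108 to 925 in embryo against pericarp (456), 113 to 1015 in pericarp against endosperm (402), 0 to 860 in aleurone against pericarp (266), 49 to 253 in embryo against endosperm (112), 33 to 108 in aleurone against embryo (73), 0 to 66 in aleurone against endosperm (7) and 60 to 898 between any tissues (291). In the same order DESeq2 called 4633, 5259, 4938, 4425, 3077, 1357, 2359 and 2219, the replicate block 392, 318, 279, 66, 370, 159, 128 and 580, lane as a covariate 1863, 186, 182, 0, 87, 65, 4 and 138, and no filter 2386, 348, 303, 107, 141, 97, 31 and 366. Pairs fitted alone called 5638, 0, 0, 4266, 388 and 82 from embryo against pericarp to aleurone against endosperm, and DESeq2 size factors 12 in the last pair. The planned order of tissues by TPM was not run, since those columns were not used. The genes most like a member shared 2 of 3 names for NEK2 and RBR1 with a pseudocount of 0.1, and 1, 0, 1 and 2 of 3 for CYCB2-1, NEK2, CDKG-1 and RBR1 by Spearman.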
